A study of Mus musculus with 4 samples.

Results

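Genes of macrophages and other myeloid cells were followed in mammary tumours of mice with and without a transgene for the cell cycle phosphatase Cdc25a. The set holds 33 genes, chosen by symbol as lineage genes, leukocyte surface genes, Fc receptors, scavenger receptors, lysosomal proteases, chemokine receptors and arginase. Probes were taken by the gene name printed in the scanner files, with former symbols allowed. This gave 42 probes for 30 of the genes, out of 41174 probes outside controls. All 30 passed the filter on dim probes, among 32661 measured genes. No probe carried the name of Adgre1, Cyba or Ms4a7, whose values could be reached only through an accession and are given apart.

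All 4 mice were female FVB/N animals aged 26 weeks with early-stage mammary tumours (T1). The neu tumours came from 2 mice carrying MMTV-neu, and the Cdc25a;neu tumours from 2 mice carrying MMTV-cdc25a together with MMTV-neu, so the neu oncogene was present in every sample. The MMTV promoter drives both transgenes, mainly in mammary epithelium. Each Cdc25a;neu tumour was hybridised against 1 neu tumour on Agilent 2-colour arrays, once in each dye orientation, giving 4 arrays of 2 mouse pairs. Log2 ratios are Cdc25a;neu over neu, and the mouse pair is the replicate (n = 2). The Cy5 or Cy3 array of a pair is the one with the Cdc25a;neu tumour in that dye.

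Macrophages arise from blood monocytes and from precursors seeded in the tissue, and depend on signals through the receptor Csf1r. They take up particles and dead cells through scavenger receptors and Fc receptors, digest the cargo in lysosomes and present fragments of it on MHC class II molecules. Several Fc receptors and Trem2 signal through small adaptor proteins, Fcer1g and Tyrobp, which carry an activation motif (ITAM) recognised by the kinase Syk. In mammary tumours macrophages are among the most common immune cells and are known for supporting vessel growth and tissue remodelling. Their gene programme is set up by the transcription factor PU.1, which binds purine-rich DNA around the core GAGGAA.

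The 250 bases ahead of the annotated start are shown for Lyz2, Trem2, Fcgr3 and Mrc1. These are 4 of the 15 genes with the opposite pattern of the pairs on every array, which is described next. They are not the 4 with the largest differences between the pairs. Sequences are from RefSeq, assembly GRCm38.p6, given 5′ to 3′ on the gene's strand, and capitals mark every GAGGAA on either strand, which reads TTCCTC on the other one. The windows are chr10:117282273-117282522 (minus strand) for Lyz2, chr17:48346151-48346400 (plus strand) for Trem2, chr1:171059404-171059653 (minus strand) for the first of 2 Fcgr3 windows and chr2:14229164-14229413 (plus strand) for Mrc1.
Lyz2: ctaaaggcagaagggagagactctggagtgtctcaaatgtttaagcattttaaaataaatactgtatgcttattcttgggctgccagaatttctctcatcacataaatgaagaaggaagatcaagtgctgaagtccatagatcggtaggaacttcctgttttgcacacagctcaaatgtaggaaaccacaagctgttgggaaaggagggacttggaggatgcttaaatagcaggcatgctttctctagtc
Trem2: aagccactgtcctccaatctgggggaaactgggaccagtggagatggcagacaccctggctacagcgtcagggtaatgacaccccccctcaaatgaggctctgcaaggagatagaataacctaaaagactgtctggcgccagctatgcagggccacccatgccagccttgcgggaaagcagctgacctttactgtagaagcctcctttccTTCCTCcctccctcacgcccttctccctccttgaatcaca
Fcgr3: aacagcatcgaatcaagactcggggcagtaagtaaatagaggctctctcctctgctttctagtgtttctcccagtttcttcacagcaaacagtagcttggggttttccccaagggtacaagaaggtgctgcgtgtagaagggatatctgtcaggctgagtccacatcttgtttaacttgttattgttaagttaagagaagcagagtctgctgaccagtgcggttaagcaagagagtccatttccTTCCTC
Mrc1: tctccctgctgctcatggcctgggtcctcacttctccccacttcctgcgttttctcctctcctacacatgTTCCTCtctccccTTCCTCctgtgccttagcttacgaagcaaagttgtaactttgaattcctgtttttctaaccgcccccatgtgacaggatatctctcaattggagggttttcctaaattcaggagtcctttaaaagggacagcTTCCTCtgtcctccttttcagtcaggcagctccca
GAGGAA was present 40 bases ahead of the Trem2 start, 6 bases ahead of the Fcgr3 start and at 180, 167 and 35 bases ahead of the Mrc1 start, and no match lay in the Lyz2 window. Of the 28 windows found for 24 of the 30 measured genes, 13 held the hexamer (46.4%), against 23.3% of all 32851 windows of the same length. The E-box CACGTG, which reads the same on both strands, was in 1 of the 28 (3.57%) and in 6.02% of all windows. A match is a description of the letters and does not show that a factor binds there.

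Most of these genes had lower values in the Cdc25a;neu tumour of pair 1 than in its neu partner, and higher values in the Cdc25a;neu tumour of pair 2 than in its partner. The median log2 ratio over the 30 genes was -0.24 in pair 1 and 0.18 in pair 2, against 0.005 in both pairs over all measured genes. In pair 1 the ratio was below 0 for 28 of 30 genes, and in pair 2 it was above 0 for 23 of 30. The ratio was below 0 in pair 1 and above 0 in pair 2 for 21 genes (70%), a pattern found in 19.7% of all measured genes. It was below 0 in both pairs for 7 genes, where 28.1% of all genes were, and above 0 in both for Csf1r and Ctsk alone, where 31.9% of all genes were. None of the 30 went the other way, higher in pair 1 and lower in pair 2. Array by array, 15 genes were lower on both arrays of pair 1 and higher on both of pair 2 (50%), against 7.59% of all genes. None was higher on both arrays of pair 1 and lower on both of pair 2, as 5.91% of all were. On all 4 arrays 5 genes were lower (16.7%; 12.4% of all genes) and none was higher (14.7% of all genes).

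**Figure D1:**
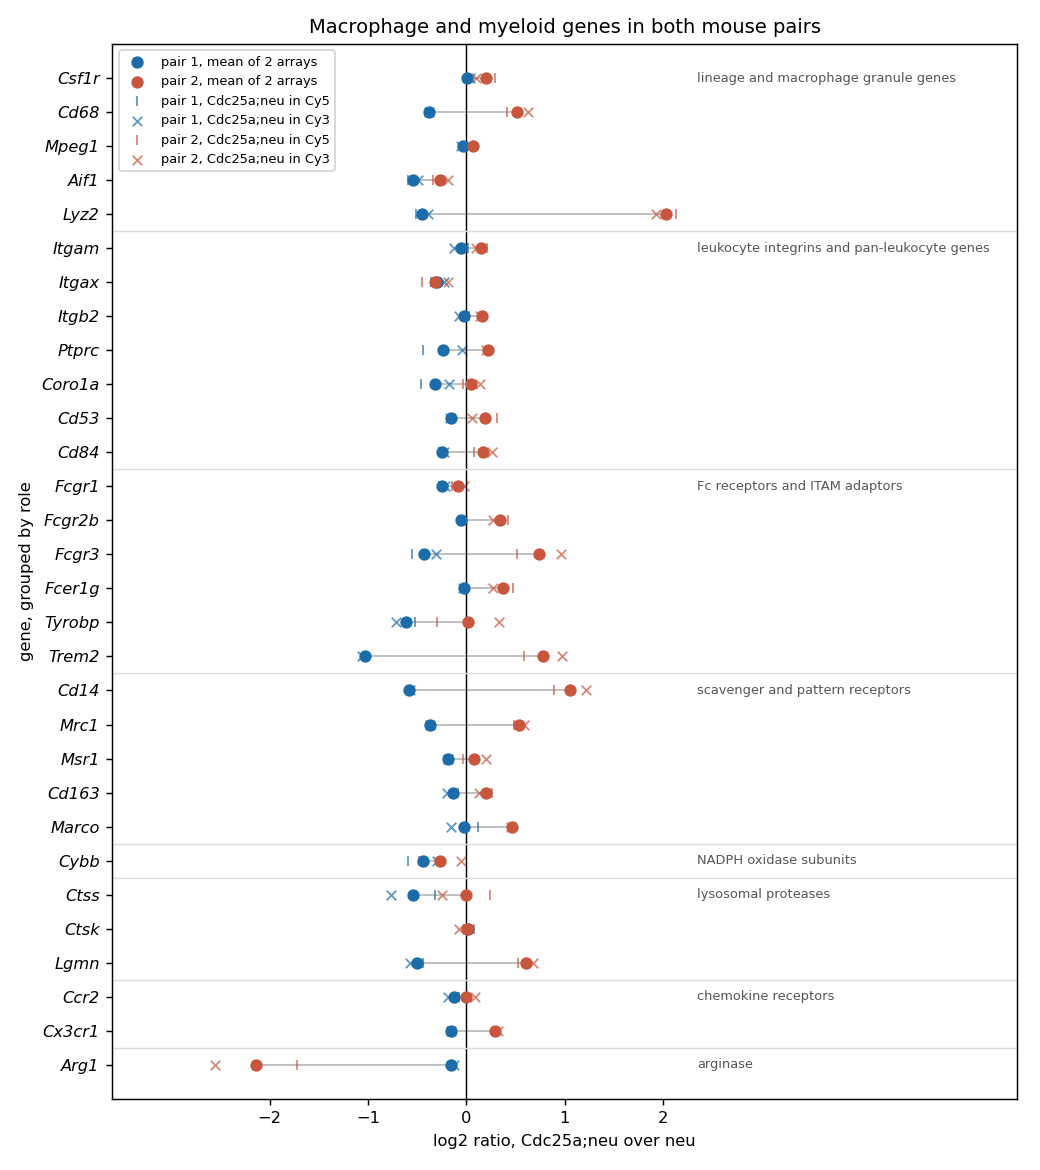
Log2 ratio of Cdc25a;neu over neu for each of the 30 measured genes, grouped by role. Filled points are the means of the 2 dye-swapped arrays of a pair and small marks the single arrays. Most blue points (pair 1) lie left of 0 and most red points (pair 2) right of it, with Lyz2 at 2.03 and Arg1 at -2.14 in pair 2 at the ends.

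The test of genotype, in which the mean of both pair ratios was compared with 0 in limma, called 0 of 32661 genes (0%), with a lowest adjusted p of 0.223. At an unadjusted p under 0.05 it found 1873 lower genes (5.73%) and 1275 higher genes (3.90%). Among the 30 genes 3 were below that unadjusted threshold, all lower in Cdc25a;neu tumours (10%): Aif1, Cybb and Itgax. None of the set thus passed the test of genotype.

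A second limma fit asked whether the ratio of pair 2 differed from that of pair 1. Its error was the spread between dye-swapped arrays left after removing a dye effect common to both pairs. A gap between the dyes that was alike in both pairs thus did not widen the error. With 1 residual degree of freedom per gene, limma drew the error towards a value shared by all genes. The spread between arrays is technical, so the fit describes these 4 tumours and says nothing about genotype. It called 1829 of 32531 genes higher in pair 2 (5.62%) and 974 lower (2.99%). Of the 30 genes it called 12 higher in pair 2 (40%) and 1 lower, Arg1. The 12 were Lyz2, Trem2, Cd14, Fcgr3, Lgmn, Mrc1, Cd68, Ctss, Marco, Cx3cr1, Cd84 and Fcgr2b. Leaving out each array in turn left between 4 and 8 of the 30 genes called higher, in a fit with no dye coefficient; with all arrays and no dye coefficient 8 were called.

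Intensities of the separate channels, averaged over each tumour's 2 arrays, placed the tumours on one log2 scale, which leans on the scaling between arrays. On it the Cdc25a;neu tumour of pair 1 had the lowest level of the 4 for 24 genes (80%), against 25.4% of all measured genes. The Cdc25a;neu tumour of pair 2 had the highest level for 20 genes (66.7%), against 25.9% of all. The pair of Cdc25a;neu tumours lay further apart than the pair of neu tumours for 27 of 30 genes, against 57.3% of all genes. Their median distance was 0.42 between the Cdc25a;neu tumours and 0.16 between the neu tumours, beside 0.21 and 0.18 over all genes. Without scaling between arrays the counts were 27, 23 and 28, beside 37.3%, 38.7% and 55.9% of all genes. These are bulk tumours, in which fewer cells of a type and less RNA per cell cannot be told apart.

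**Figure D2:**
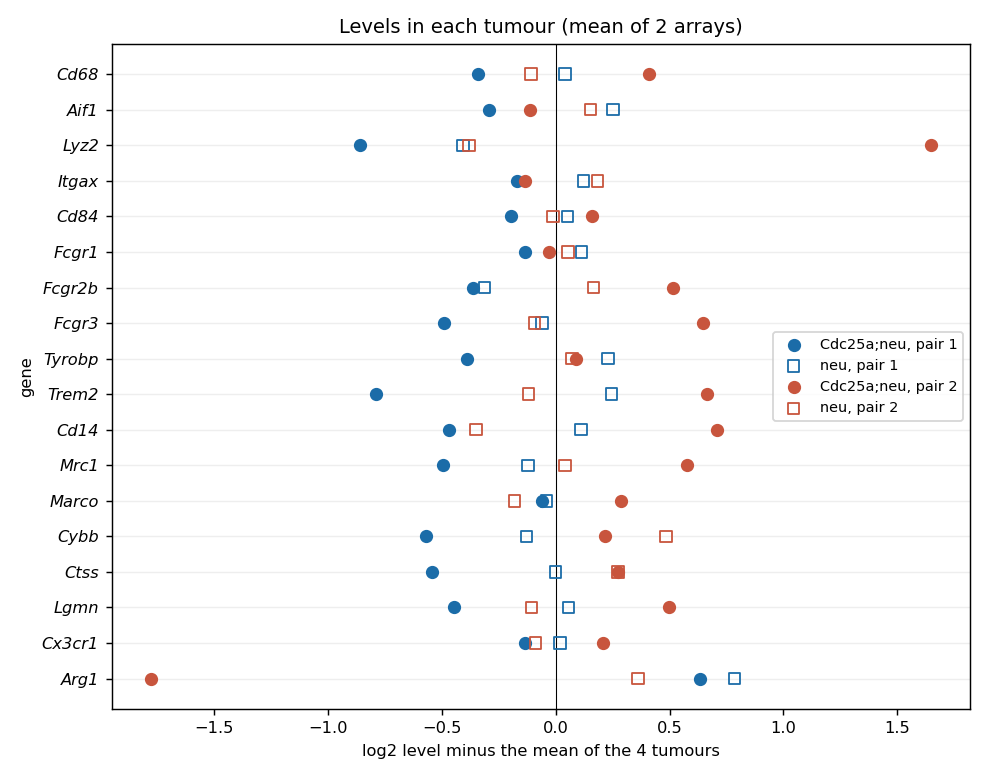
Level of each gene in the 4 tumours, as log2 intensity minus the gene's own mean over the 4, for the 18 genes described singly. Filled circles are Cdc25a;neu tumours and open squares neu tumours, blue for pair 1 and red for pair 2. The blue circle is leftmost in most rows and the red circle rightmost, and for Arg1 the red circle is leftmost.

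Among the lineage and granule genes, Lyz2 had the largest difference between the pairs. Lyz2 encodes lysozyme M, an enzyme that cleaves bacterial cell walls and is made in bulk by macrophages and granulocytes. Its log2 level was 12.48 in the Cdc25a;neu tumour and 12.93 in the neu tumour of pair 1, and 14.99 and 12.95 in those of pair 2. The neu tumours were nearly level, and the Cdc25a;neu tumours lay on either side of them. Lyz2 was thus 1.37-fold lower in pair 1 (log2 ratio -0.45) and 4.09-fold higher in pair 2 (2.03). The difference between the pairs was 2.49 ± 0.11 (SE; limma adjusted p = 0.000225), while the mean over the pairs was 0.79 ± 1.76 (SD, n = 2; limma adjusted p = 0.765). A second Lyz2 probe gave -0.10 and 0.77, with the same signs. The near-identical neighbour gene Lyz1, which the arrays cannot be assumed to separate from Lyz2, gave -0.40 and 2.02.

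Cd68, a membrane protein of late endosomes and lysosomes that is widely used to count macrophages, followed the same order on a smaller scale. Its log2 level was 7.38 against 7.76 in pair 1 and 8.13 against 7.61 in pair 2, Cdc25a;neu first. Again the Cdc25a;neu tumours were the lowest and the highest of the 4, with both neu tumours between. The ratios were -0.38 and 0.52, and the difference was 0.90 ± 0.10 (SE; limma adjusted p = 0.0041). This call was lost when either array of pair 1 was left out, at a difference of 0.90 each time.

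Aif1 (Iba1), a calcium-binding protein of the actin cytoskeleton in macrophages, was lower in the Cdc25a;neu tumour on all 4 arrays. Aif1 stood at a log2 level of 9.44 against 9.98 in pair 1 and 9.62 against 9.88 in pair 2. Both Cdc25a;neu tumours lay below both neu tumours. The mean ratio was -0.41 ± 0.20 (SD, n = 2) with an unadjusted p of 0.0287 and an adjusted p of 0.497 in limma. A further Aif1 probe, named only through its accession, gave -0.42 and -0.41.

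Levels of Csf1r and Mpeg1 hardly separated the tumours within a pair. Csf1r, the receptor for the macrophage growth factors Csf1 and Il34, had ratios of 0.01 and 0.20, and Mpeg1, a pore-forming protein of phagosomes, -0.03 and 0.07. Neither difference between the pairs was called (limma adjusted p = 0.393 and 0.615). Of the genes reached only by accession, Adgre1, which encodes the macrophage surface protein F4/80, gave -0.16 and 0.30, and Ms4a7, a membrane protein of macrophages, -0.12 and 0.38. Both thus had the signs that Lyz2 and Cd68 had.

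The integrin and pan-leukocyte genes held 7 measured genes, of which 6 were below 0 in pair 1 and above 0 in pair 2. Their median ratios were -0.24 and 0.16. Itgax (CD11c), the integrin chain that marks dendritic cells and some tissue macrophages, was the exception. The log2 level of Itgax was 7.21 against 7.50 in pair 1 and 7.24 against 7.56 in pair 2. The tumours of each genotype were close together and the genotypes did not overlap. The mean ratio was -0.31 ± 0.02 (SD, n = 2), with an unadjusted p of 0.0088 and an adjusted p of 0.45 in limma, and the pairs differed by -0.03 ± 0.09 (SE).

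Cd84, a self-binding receptor of the SLAM family on leukocytes, was at 6.81 against 7.06 in pair 1 and 7.17 against 7.00 in pair 2. The lowest and the highest level were again those of the Cdc25a;neu tumours. Its pairs differed by 0.42 ± 0.09 (SE; limma adjusted p = 0.0392), a call lost whichever array was left out, at differences of 0.33 to 0.51. The leukocyte phosphatase Ptprc (CD45) gave ratios of -0.24 and 0.22, the actin regulator Coro1a -0.32 and 0.05, and the tetraspanin Cd53 -0.15 and 0.19. The integrin chains Itgam (CD11b) and Itgb2 (CD18) stayed within -0.06 and 0.16. None of these 5 was called in either fit, with adjusted p from 0.0582 to 0.303 for the difference in limma. Second probes of Ptprc and Coro1a gave 0.02 and 0.05 in pair 1, so the lower values there rested on 1 probe each. A further Ptprc probe, reached by accession, gave -0.01 and -0.11.

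Of 6 Fc receptor and ITAM genes, 5 were below 0 in pair 1 and above 0 in pair 2, and 3 of them were called different between the pairs. Trem2, a receptor for lipids and cell debris that signals through Tyrobp, stood out in both pairs. Its log2 level was 8.85 against 9.88 in pair 1 and 10.30 against 9.52 in pair 2. Trem2 was 2.05-fold lower in the Cdc25a;neu tumour of pair 1 and 1.72-fold higher in that of pair 2. The Cdc25a;neu tumours were the lowest and the highest of the 4. The pairs differed by 1.82 ± 0.12 (SE; limma adjusted p = 0.000894). Another Trem2 probe, known by accession, gave -0.51 and 0.55.

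Fcgr3, the low-affinity activating receptor for immunoglobulin G, was at 7.76 against 8.19 in pair 1 and 8.89 against 8.15 in pair 2. The neu tumours were nearly level, with a Cdc25a;neu tumour on each side. The difference between the pairs was 1.17 ± 0.09 (SE; limma adjusted p = 0.00161). A dimmer Fcgr3 probe, named only through its accession, gave smaller ratios of the same signs, -0.09 and 0.23. For the brighter probe, the difference was not called without the Cy5 or without the Cy3 array of pair 1, at 1.05 and 1.29. Fcgr2b, the inhibitory Fc receptor, was at 7.32 against 7.37 in pair 1 and 8.20 against 7.85 in pair 2. Here the neu tumours differed too, and the Cdc25a;neu tumour of pair 1 was close to its partner. Its pairs differed by 0.40 ± 0.09 (SE; limma adjusted p = 0.0493), and no fit on 3 arrays called it, at 0.33 to 0.47. Dimmer Fcgr2b probes gave -0.08 and 0.66, and -0.02 and 0.34. For the first of these the neu tumours were level, at 7.22 and 7.23, so their difference depended on the probe. The extracellular parts of Fcgr2b and Fcgr3 are very similar in sequence, so their probes may share signal.

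Tyrobp (DAP12), the adaptor for Trem2, was at 8.64 against 9.26 in pair 1 and 9.12 against 9.10 in pair 2. Only the Cdc25a;neu tumour of pair 1 was set apart, below the other 3. The ratio was -0.62 in pair 1 and 0.02 in pair 2, where the dye-swapped arrays gave -0.30 and 0.34. This wide spread went with a difference of 0.63 ± 0.19 (SE) that was not called (limma adjusted p = 0.106). Fcer1g, the other ITAM adaptor, gave -0.03 and 0.37 (limma adjusted p = 0.0526 for the difference). Fcgr1, the high-affinity receptor, was at 8.45 against 8.69 and 8.55 against 8.63, lower in both Cdc25a;neu tumours than in either neu tumour. Its mean ratio was -0.17 ± 0.12 (SD, n = 2; limma adjusted p = 0.563).

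Levels of Aif1, Itgax and Fcgr1 were lower in both Cdc25a;neu tumours than in both neu tumours. These 3 genes are 10% of the 30, and 11.2% of all measured genes did the same. No gene of the set was higher in both Cdc25a;neu tumours than in both neu tumours, as 8.65% of all genes were. The separation of Aif1 and Fcgr1 was absent without scaling between arrays, where Itgax and Arg1 were the separated lower genes and Csf1r and Ctsk separated upward.

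All 5 measured scavenger and pattern receptors were below 0 in pair 1 and above 0 in pair 2, with median ratios of -0.19 and 0.47. For Msr1 this was read from a probe with the array name Msr2. The brightest probe named Msr1 itself was above 0 in both pairs (0.05 and 0.13). Dimmer probes named Msr1 were just below 0 in pair 1 and above 0 in pair 2. Cd14, the co-receptor that hands bacterial lipopolysaccharide to Tlr4, was at 8.79 against 9.37 in pair 1 and 9.96 against 8.90 in pair 2. The Cdc25a;neu tumour of pair 2 was set apart above the other 3, and that of pair 1 was the lowest. Cd14 was 1.49-fold lower in pair 1 and 2.08-fold higher in pair 2. The pairs differed by 1.64 ± 0.10 (SE; limma adjusted p = 0.000745).

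Mrc1 (CD206), the mannose receptor of tissue macrophages, was at 6.82 against 7.19 in pair 1 and 7.89 against 7.35 in pair 2. The neu tumours lay between the Cdc25a;neu tumours. The difference of 0.91 ± 0.09 (SE; limma adjusted p = 0.00325) was lost only without the Cy5 array of pair 1, at 0.91. Marco, a scavenger receptor for bacteria and particles, was at 8.47 against 8.49 and 8.81 against 8.35. In pair 1 its tumours were level, and its arrays there gave 0.12 and -0.16. The pairs differed by 0.49 ± 0.10 (SE; limma adjusted p = 0.0348), a call that no set of 3 arrays kept, at 0.35 to 0.62.

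Cd163, the receptor for haemoglobin bound to haptoglobin, gave -0.14 and 0.20, and its probe was above background in only 2 of 4 arrays for the Cdc25a;neu tumours. For Msr1, the class A scavenger receptor, the brightest probe carried the array name Msr2 and gave -0.19 and 0.08. The accession of that probe belongs to Fcrls, an Fc receptor-like gene, in the RefSeq table. Dimmer probes named Msr1 gave -0.01 and 0.30, and -0.01 and 0.53, the last without signal above background for the neu tumours. The brightest probe named Msr1 itself gave 0.05 and 0.13. With this probe in its place, 3 genes of the set were above 0 in both pairs and 20 had opposite signs.

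Cybb, the catalytic subunit of the phagocyte NADPH oxidase that makes superoxide, was lower in the Cdc25a;neu tumour on all 4 arrays. Cybb stood at a log2 level of 6.95 against 7.40 in pair 1 and 7.74 against 8.01 in pair 2. The genotypes overlapped, because both tumours of pair 2 were higher than both of pair 1. The mean ratio was -0.35 ± 0.13 (SD, n = 2), with an unadjusted p of 0.0184 and an adjusted p of 0.488 in limma. A dimmer Cybb probe gave -0.06 and -0.05. The partner subunit Cyba, reached by accession, gave 0.20 and 0.38, above 0 in both pairs. The 4 subunits that join the enzyme from the cytosol had median ratios of -0.15 and 0.13, and of these Ncf4 alone was called different between the pairs (-0.25 and 0.31; limma adjusted p = 0.0257).

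Among the lysosomal proteases, Lgmn (legumain), which cleaves after asparagine and activates cathepsins, was at 9.10 against 9.60 in pair 1 and 10.04 against 9.44 in pair 2. The Cdc25a;neu tumours were again the lowest and the highest. The pairs differed by 1.11 ± 0.10 (SE; limma adjusted p = 0.00292). Ctss, the cathepsin that trims the invariant chain of MHC class II, was at 11.79 against 12.34 in pair 1 and 12.61 against 12.61 in pair 2. Only the Cdc25a;neu tumour of pair 1 was low. Ctss gave -0.32 and -0.77 on the Cy5 and Cy3 arrays of pair 1, and 0.24 and -0.24 on those of pair 2. Ctss thus had opposite signs on the arrays of pair 2, and the error leaves out its dye gap, which was alike in both pairs. Its difference was 0.54 ± 0.09 (SE; limma adjusted p = 0.0155), which 3 arrays called only when the Cy3 array of pair 2 was the one left out; the others gave 0.77, 0.32 and 0.30. Ctsk, the collagen-degrading cathepsin of osteoclasts, gave 0.02 and 0.00.

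The 18 other lysosome genes examined had median ratios of -0.19 and 0.00, with 9 below 0 in both pairs. The difference between the pairs was called for 4 of them, all higher in pair 2. Ctsl, a general lysosomal cathepsin, gave -0.81 and 0.68, and the acid lipase gene Lipa -0.50 and 0.41. Psap, the precursor of the saposins that help to break down sphingolipids, was lower in both (-0.70 and -0.91), with an unadjusted p of 0.00287 and an adjusted p of 0.437 in limma.

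Of the chemokine receptors, Cx3cr1, the receptor of fractalkine on monocytes and tissue macrophages, was at 7.54 against 7.70 in pair 1 and 7.88 against 7.59 in pair 2. The order of the tumours was that of Cd68. The pairs differed by 0.45 ± 0.09 (SE; limma adjusted p = 0.0281), but a second probe gave 0.19 and 0.11, and the call was lost with any array left out, at 0.43 to 0.47. Ccr2, the receptor that brings monocytes out of the bone marrow, gave -0.13 and 0.00 and was above background on 3 of 4 arrays for each genotype.

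Ligands were read from a list of 11 measured macrophage growth factors and monocyte chemokines, whose median ratios were -0.06 and 0.10. The difference between the pairs was called higher in pair 2 for 5 of them. Cx3cl1 (fractalkine), the ligand of Cx3cr1, was at 9.51 against 10.34 in pair 1 and 10.87 against 10.12 in pair 2, so its ratios were -0.83 and 0.74. Ccl8, a monocyte chemokine, gave -0.30 and 0.60, and Ccl2, the main ligand of Ccr2, 0.00 and 0.67. Ccl5, a chemokine of T cells and monocytes, went the other way, with -0.06 in pair 1 and -0.79 in pair 2 (limma adjusted p = 0.00712).

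Arg1, the arginase that turns arginine into ornithine and is known from macrophages in tumours and wounds, was the only gene of the set called lower in pair 2. Its log2 level was 10.54 against 10.69 in pair 1 and 8.13 against 10.27 in pair 2. A single tumour, the Cdc25a;neu tumour of pair 2, was low, below the other 3, which lay close together. Arg1 was lower on all 4 arrays, 1.11-fold in pair 1 and 4.41-fold in pair 2. The pairs differed by -1.99 ± 0.20 (SE; limma adjusted p = 0.00342), not called without the Cy5 or without the Cy3 array of pair 1 (-2.01 and -1.97). The tumour with the lowest Arg1 level was thus the one with the highest Lyz2, Trem2, Cd14 and Mrc1 levels.

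**Figure D3:**
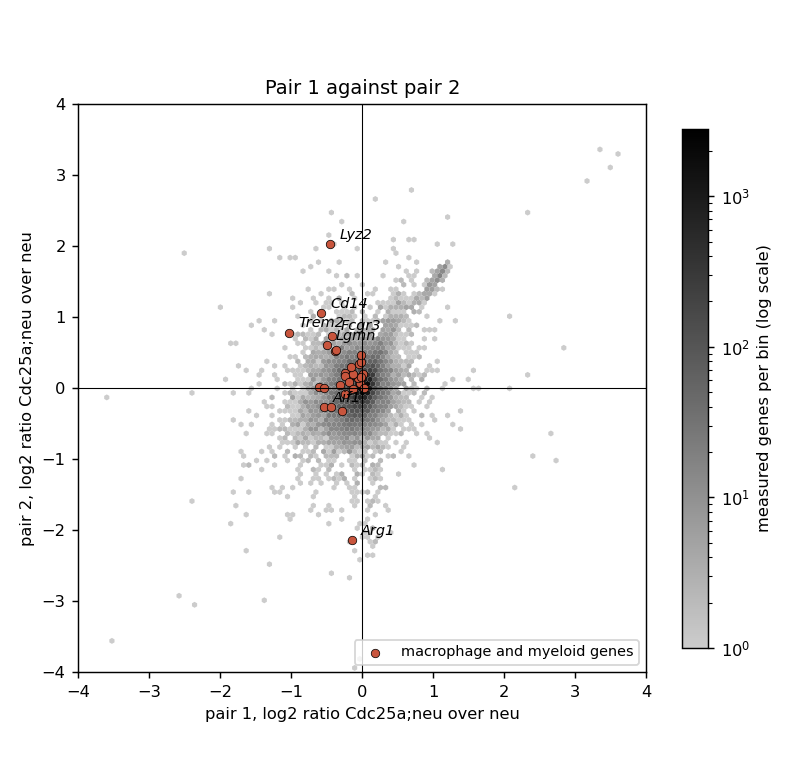
Log2 ratio of Cdc25a;neu over neu in pair 1 (horizontal) against pair 2 (vertical). Grey bins hold all measured genes within 4 of 0, shaded by their number on a log scale, and red points the 30 macrophage and myeloid genes. Most red points lie in the upper left part of the plot (21 genes), and Arg1 lies below the other red points.

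Other macrophage genes were read from a list of 35 measured genes, with median ratios of -0.02 and 0.17. In it 16 genes were below 0 in pair 1 and above 0 in pair 2, and 14 were above 0 in both. The difference was called higher in pair 2 for 12 and lower for 2. Pf4, a chemokine of platelets and some macrophages, gave -0.29 and 2.34, and Hmox1, the enzyme that breaks down haem, -0.65 and 1.79. Spp1 (osteopontin), a secreted matrix protein of epithelium and macrophages, was higher in both, at 0.72 and 2.81 (unadjusted p = 0.0773 and adjusted p = 0.54 for the mean in limma). Its probe was saturated on 1 of the 4 arrays. Cd74, the invariant chain of MHC class II, was lower in both, at -0.13 and -1.57.

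Transcription factors of the myeloid lineage, 13 genes, had medians of -0.11 and 0.06. Cebpd, a factor induced in macrophages by inflammation, gave -1.17 and 1.83 (limma adjusted p = 9.06e-05 for the difference). Cebpb, a relative of Cebpd, went the other way, with 0.12 in pair 1 and -1.06 in pair 2 (limma adjusted p = 0.0129). Among 14 genes of ITAM signalling, Pirb, an inhibitory receptor of myeloid cells, gave -0.70 and 1.04, and the Src-family kinase Lyn 0.50 and -0.52. Inpp5d (SHIP1), a phosphatase of that pathway, was above 0 in both, at 0.93 and 1.50, as was Alox5ap, needed for making leukotrienes, at 0.98 and 1.55. Both lie where 90 and 87 other genes had nearly the same ratios, within 0.25 on each of the 4 arrays.

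Genes of macrophage activation, 19 measured, had medians of -0.01 and 0.04, and 3 were called higher in pair 2. Retnla, a secreted protein of alternatively activated macrophages, was lower in both pairs (-1.06 and -0.86; unadjusted p = 0.00165 and adjusted p = 0.437 in limma). Chil3 (Ym1), another gene of that state, was above 0 in both (1.17 and 1.76) and had 49 genes within 0.25 of its ratio on each of the 4 arrays. Retnla, Chil3 and Arg1 are often named together. Retnla and Arg1 were both lower on all 4 arrays, Arg1 mostly in pair 2 (-0.15 and -2.14), and Chil3 was higher on all 4.

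Markers of the other cell types in such tumours were read for the same pairs. Fibroblast and stromal genes also went opposite ways, with median ratios of -0.26 and 0.56. Of the 15 genes, 10 were below 0 in pair 1 and above 0 in pair 2, and 9 were called higher in pair 2. Vim, an intermediate filament protein of mesenchymal cells and macrophages, gave -0.32 and 1.81, and the collagen gene Col1a1 -0.36 and 1.60. Of the other genes of the list, 3 were below 0 in both pairs and 2 above 0 in both. Dcn, the gene of the list with the largest mean ratio in size, was lower on all 4 arrays, at -1.001 and -0.655. The mean log2 level of the 15 genes was 7.73 and 9.12 in the Cdc25a;neu tumours of pairs 1 and 2, and 8.02 and 8.64 in the neu tumours, so here the neu tumours differed as well. For the 30 genes of the set the same means were 8.09 and 8.57 against 8.37 and 8.36. Most of the stromal genes, though not all, moved with the set in these tumours, and the part of stromal genes in the result was not tested.

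Granulocyte genes, which share Lyz2 with macrophages, had median ratios of 0.00 and 0.11 over 13 genes, and 3 were called higher in pair 2. Lcn2 and Ltf, which granulocytes and mammary epithelium both make, had ratios of -0.02 and 0.15 in the first pair, and of 1.10 and 1.40 in the second. Of the defining granulocyte genes, S100a8 gave -0.04 and 0.50 (limma adjusted p = 0.0157), with its probe above background on only 2 of 4 arrays for each genotype, and S100a9 gave 0.13 and 0.53 (adjusted p = 0.147). Ngp, a protein of neutrophil granules, was below 0 on all 4 arrays, at -0.65 and -0.03 (limma adjusted p = 0.18 for the difference), and was above background on 3 of 4 arrays for each genotype. Of the 13 genes, 4 were above 0 in both pairs and 4 were below 0 in both. The mean level of the list was 7.39 and 7.66 in the Cdc25a;neu tumours and 7.42 and 7.37 in the neu tumours, with 9 of 13 genes above background on all arrays. The part of granulocytes in the Lyz2 values was not tested.

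T and NK cell genes (17 measured, medians 0.01 and -0.09), B cell genes (12 measured, -0.01 and 0.00), mast cell genes (11 measured, 0.00 and -0.01) and dendritic cell genes (14 measured, 0.04 and 0.06) stayed near 0. In these 4 lists together, 1 gene was called higher and 3 lower in pair 2. MHC class II genes, which macrophages, dendritic cells and B cells share, had medians of -0.09 and -0.11, but H2-Ab1, Cd74 and H2-Aa were called lower in pair 2, at -1.57, -1.57 and -1.17 there. Interferon-stimulated genes had a median of -0.05 in pair 1 and -0.96 in pair 2, with 16 of 22 called lower in pair 2. The interferon-induced GTPase gene Iigp1 was at -0.04 and -2.45. Its log2 level was 9.56 in the Cdc25a;neu tumour of pair 2 and 11.93, 11.97 and 12.01 in the others, so that tumour alone was low, as for Arg1. For H2-Ab1 the neu tumour of pair 2 stood apart, at 10.66 against 9.08, 9.23 and 9.32.

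**Figure D4:**
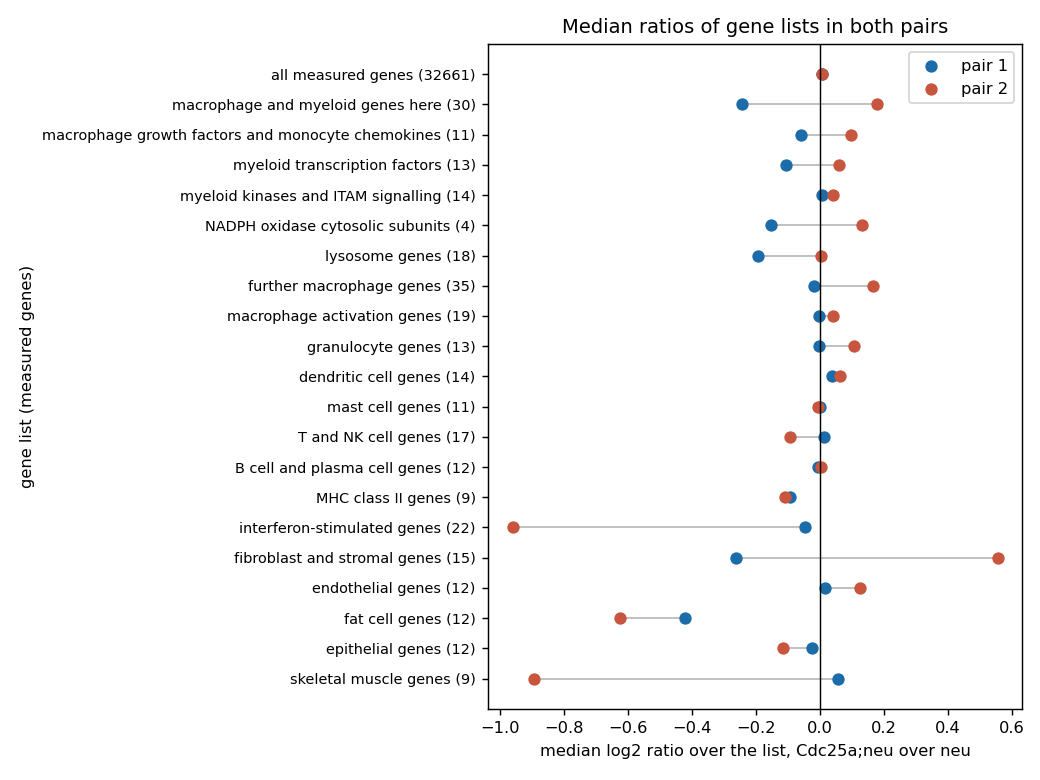
Median log2 ratio of Cdc25a;neu over neu in pair 1 (blue) and pair 2 (red) for each gene list, with the number of measured genes in brackets. The macrophage and myeloid set runs from -0.24 to 0.18 and the fibroblast list from -0.26 to 0.56, while the interferon list runs the other way.

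Fat cell genes had medians of -0.42 and -0.63, with 8 of 12 below 0 in both pairs. The adipsin gene Cfd gave -3.55 and -3.54, and Fabp4, a fatty acid carrier of fat cells, -2.36 and -3.06. Car3, a carbonic anhydrase, gave -1.40 and -2.99, and the hormone gene Adipoq -1.31 and -2.51. These 4 were below 0 on all 4 arrays. No gene of the list passed the limma test of the mean after adjustment, and at an unadjusted p under 0.05 there were 5 lower and 1 higher. The difference was called lower in pair 2 for 5 of the 12. Skeletal muscle genes had medians of 0.06 and -0.89, with 7 of 9 called lower in pair 2. For the troponin gene Tnni2 the neu tumour of pair 2 was the high one, at 10.02 against 7.46, 7.53 and 7.63. Fat holds macrophages of its own, and the part of these tissues in the set's values was not tested. Epithelial genes had medians of -0.03 and -0.12, with 1 of 12 called higher and 2 called lower in pair 2. The keratin gene Krt18 had log2 levels of 14.30 to 14.61 in the 4 tumours. The difference was called for Esr1, the oestrogen receptor gene (0.66 and -0.98; limma adjusted p = 0.00147), for Cldn4, a tight junction gene (0.34 and -0.70; adjusted p = 0.00868), and for the keratin gene Krt19 (-0.40 and 0.36; adjusted p = 0.00808). Epcam, an epithelial adhesion gene, was below 0 on all 4 arrays, at -0.17 and -0.51. Endothelial genes had medians of 0.02 and 0.12.

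The share of spots outside controls that stood clear of background was 78.5% to 92.2% for green and 82.7% to 87.9% for red, and 9 to 87 spots per array carried outlier flags. Of the 30 genes, 26 were above background on all 4 arrays for both tumours; the exceptions were Itgam, Mpeg1, Cd163 and Ccr2. No probe of the set was saturated on any array.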

How the data were processed

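Each array's scanner output holds, per the file headers, spot intensity in both channels and the log10 ratio of the processed signals. It was made with Agilent Feature Extraction, version 7.2 in the submitters' processing notes and 7.5.1 in the headers. The authors' deposited value table holds natural log ratios, red over green (slopes of 2.27 to 2.29 against the log10 ratio). Its centring is unknown, and it served only as an alternative.

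Intensities were corrected by normexp (offset 50, which pulls ratios of dim genes towards 0) and normalized by loess within arrays. Control spots had weight 0 in loess, outlier-flagged spots were left out, and swapped arrays were turned to one direction. Probes had to stand well above background in 1 or both channels on 2 or more arrays, and each gene was read from its brightest such probe. The 2 arrays of a pair share their RNA and were averaged, so same-numbered tumours are paired by hybridisation. Tests used limma 3.58.1 (R 4.3.3), two-sided, with Benjamini-Hochberg adjustment over all genes at 0.05. The fit of the difference between pairs had a dye coefficient and 1 residual degree of freedom per gene. Tumour levels came from separate-channel analysis (loess, then Aquantile).

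Single genes were described where the sign was the same on all 4 arrays, a pair ratio was at least 0.5 in size, or a fit called them. From each other list up to 4 genes by mean ratio and 4 by difference were named. The genes and lists were chosen with earlier results of these data known. Gene names came from the arrays or, for probes matched to RefSeq (GRCm38.p6), from that table. With 1 array per slide, slide and array cannot be told apart. On simulated data with 32661 genes, the test of genotype recovered 0 of 100 genes changed by 1 and 53 of 100 changed by 2 (log2), and the fit of the difference 98 and 100 of 100. The small number of arrays limits the precision.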

Additional observations from a re-analysis of the deposited data

Results flagged for a closer look

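For 13 genes of the set the log2 ratio of the Cdc25a;neu over the neu tumour differed between the mouse pairs, by the limma contrast of pair 2 minus pair 1. Its error is the technical spread left between dye-swapped arrays after the common dye effect. The contrast therefore compares these 4 tumours and does not test whether an effect of genotype differs. The differences on the log2 scale were 2.49 for Lyz2, 1.82 for Trem2, 1.64 for Cd14, 1.17 for Fcgr3, 1.11 for Lgmn, 0.91 for Mrc1, 0.90 for Cd68, 0.54 for Ctss, 0.49 for Marco, 0.45 for Cx3cr1, 0.42 for Cd84, 0.40 for Fcgr2b and -1.99 for Arg1. With 1 mouse of each genotype in a pair, animal and pair cannot be told apart. Groups of 2 tumours are too small for a search for single outlying samples.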

How the results depend on the processing

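The fit of the difference between pairs depended most on the processing. It called 2803 genes, but 564 with normexp offset 0, 449 with the scanner's log ratio, 903 with median centring in place of loess, 764 in the authors' deposited value table, 1486 with no dye coefficient and 348 to 1957 with 1 array left out. The 12 genes of the set called higher became 7 with offset 0, 5 with the scanner's log ratio, 7 in the value table and 4 to 8 with 1 array left out. Over 12 alternatives, left-out arrays included, Lyz2, Trem2 and Cd14 kept their call in 12, Lgmn and Mrc1 in 11, Fcgr3 and Arg1 in 10, Cd68 in 9, Ctss in 5, Marco and Cd84 in 4, Cx3cr1 in 3 and Fcgr2b in 2. No difference called here changed sign in them. Removing or tightening the filter on dim probes, or leaving out the probes named Msr2, left the ratios of these genes unchanged. Averaging over probes did the same for genes with 1 probe. Such alternatives could change a call only through the fit over all genes, so these counts overstate how often a call was put to the test. The left-out arrays, the count of called genes in the set and the levels without scaling between arrays were chosen after seeing the data. The test of genotype called 0 genes except with median centring (934, lowest limma adjusted p 8.5e-38, Lyz2 and Arg1 among them), which is implausible from 2 pairs. Without a replicate block, ignoring the pairs, it called 0 genes (lowest limma adjusted p 0.0814, 1039 at an unadjusted p under 0.05), and 1 gene of the set was under the unadjusted threshold in place of 3. The count of genes higher in both pairs was 1 with median centring and 1 to 4 with 1 array left out. The medians of the set stayed below 0 in pair 1 (-0.46 to -0.15) and above 0 in pair 2 (0.17 to 0.30) in these alternatives. The cause of these shifts was not tested. Dim genes (Itgam, Mpeg1, Cd163, Ccr2) are limited by signal over background.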
